A study of Papio anubis with 12 samples.

Results

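The 42 genes described here encode the synaptic vesicle and SNARE machinery of the nerve terminal: 11 vesicle proteins, 4 calcium sensors, 7 SNAREs, 5 proteins that take SNARE complexes apart or clamp them, 8 RAB3 and active zone proteins, and 7 endocytic proteins. They were chosen by symbol, and a probe set was taken where the platform annotation gave it exactly 1 gene symbol equal to that of a member. This gave 96 of the 54613 probe sets tested. For counts over the 42 genes, each gene was represented by its probe set with the highest mean signal over all arrays, and the other 54 probe sets were tested too, with values given where one met the naming rule or bore on the same gene. Of the genes, 15 had 1 probe set, 8 had 2, 14 had 3, 2 had 4 and 3 had 5.

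RNA came from the precentral gyrus, the strip of cerebral cortex that holds the primary motor area, of 12 baboon neonates, with 1 array per animal. Animals were randomized to formula L3, with 1.00% DHA and 0.67% ARA, formula L, with 0.33% DHA and 0.67% ARA, or formula C, with neither, and 4 animals were fed each formula for 12 weeks. DHA (docosahexaenoic acid) and ARA (arachidonic acid) are long chain polyunsaturated fatty acids of brain membranes, so L3/C and L/C compare formulas that differ in both, and L3/L compares formulas that differ in DHA. Tissue was taken at 83 to 84 days of age in L3, 84 to 87 days in L and 83 to 85 days in C, and the animals were 4 females in L3, 3 females and 1 male in L, and 2 females and 2 males in C.

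A synaptic vesicle releases its transmitter when VAMP on its membrane zips together with SNAP25 and syntaxin on the plasma membrane, a step that synaptotagmin triggers when calcium enters the terminal. Active zone scaffolds hold vesicles at the release site, NSF and its adaptors pull spent SNARE complexes apart, and clathrin adaptors, dynamin and endophilins retrieve the membrane for another round. In the cortex many of these proteins are made chiefly by neurons, and their transcripts are common markers of synapse maturation. This does not hold for every member, and STX6, STX7 and VAMP4 act in endosomal traffic.

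The arrays (Affymetrix HG-U133 Plus 2.0) carry probes for human transcripts, and the deposited signals had been scaled to a trimmed mean of 250.01 to 250.02 on every array. The arrays differed in technical controls. The 18 spike-in probe sets were the bio and cre hybridization controls. Their mean log2 signal was 12.27 to 13.72 on 6 arrays (L3 replicates 1, 2 and 3, L replicate 1, and C replicates 1 and 2). It was 10.77 to 12.01 on the other 6. The ratio of the 3′ to the 5′ signal of ACTB, a check of RNA integrity and labelling, was 3.65 to 72.3 on the 6 arrays with higher spike-in signal and 0.904 to 3.64 on the 6 with lower spike-in signal. Formula and this division are unevenly matched, with 3 of 4 L3 arrays, 1 of 4 L arrays and 2 of 4 C arrays among those with higher spike-in signal. Markers of neurons were measured for 12 of 12 genes, and their summed signal was 67764.5 to 75846 in L3, 68983 to 80149 in L and 68369 to 76742 in C. The astrocyte sum (8 of 8 markers) was 22467 to 36129.9 in L3, 22128.5 to 31352 in L and 19243 to 28029.8 in C, the oligodendrocyte sum (7 of 8) was 6169 to 13634 in L3, 9677 to 15434 in L and 7949 to 17407 in C, and the microglia sum (7 of 8) was 1969 to 3667 in L3, 2331 to 4783 in L and 1336 to 3555 in C. The sums of the formulas overlapped for each list. The dimmest microglia markers, C1QA and C1QB, had mean log2 signals at percentiles 30.3 and 44.1 of all probe sets. The part of spike-in signal, the ACTB ratio and cell makeup in the results on formula was not tested beyond the values given with them, and in a piece of whole tissue fewer neurons and less RNA per neuron cannot be told apart.

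All 42 genes had a mean log2 signal above the median of all probe sets (a signal of 125), and 39 were in the upper quartile. Taking the brightest probe set of each gene favours such a rank. Of the other 54 probe sets, 36 were above the median. Across the 12 arrays the highest signal was under 2 times the lowest for 9 genes and over 5 times the lowest for 7, with a median of 2.30. The steadiest were SYN2 (4002 to 6556, a ratio of 1.64), SYNGR1 (2253 to 3692, a ratio of 1.64) and SNAP91 (1568 to 2673, a ratio of 1.71). The most variable were NAPA (36.9 to 2507, a ratio of 68.0), SNCB (94.7 to 3839, a ratio of 40.6) and RAB3B (33.5 to 499, a ratio of 14.9). The mean signal that chose the NAPA probe set was carried by its 6 high arrays, and on its other probe set (208751_at), the brighter one by mean log2 signal, the ratio was 10.8. The map of the 42 genes by array shows where these spreads came from.

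**Figure D1:**
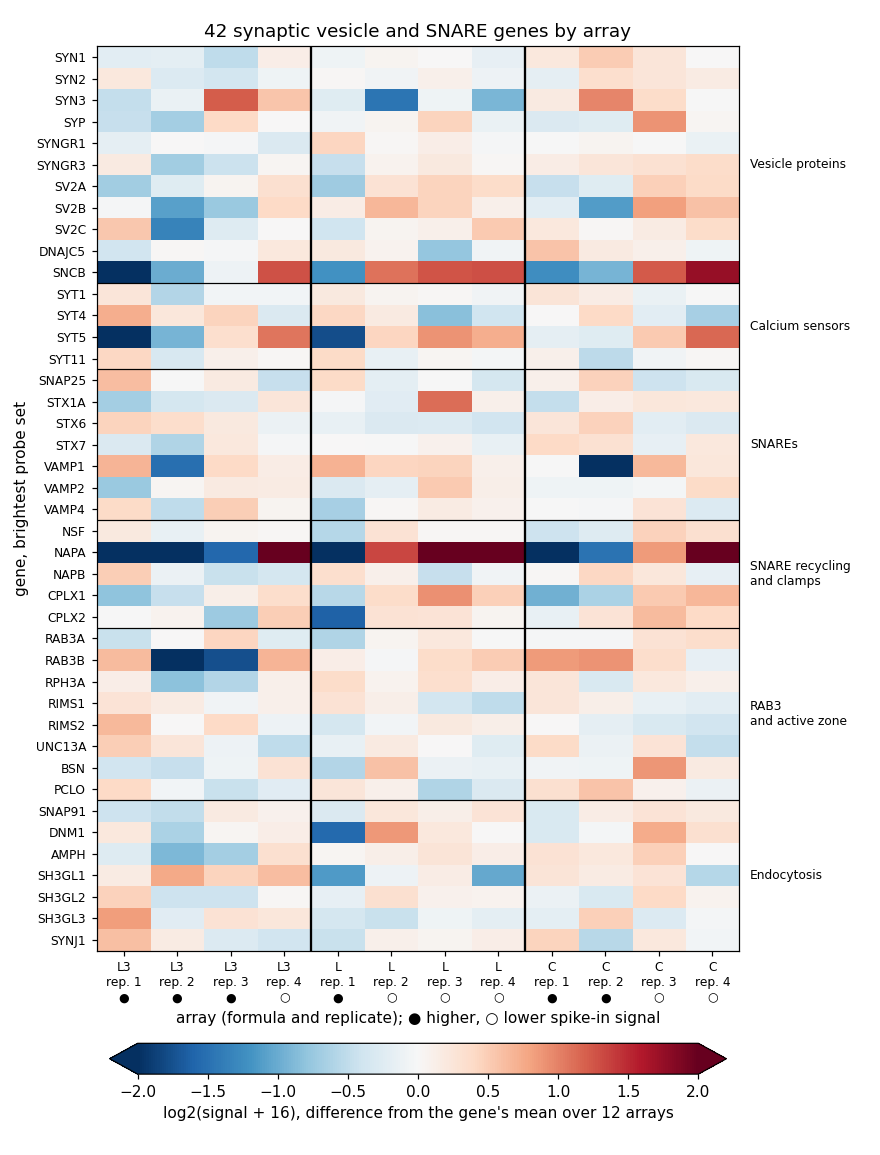
Each row is a gene (brightest probe set) and each column an array, grouped as L3, L and C, with filled circles for the 6 arrays with higher spike-in signal. Colour gives the log2 signal minus the gene's mean over 12 arrays, and NAPA, SNCB and SYT5 change from blue to red with the circles rather than with the formula.

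None of the 42 genes differed between formulas at an adjusted p under 0.05 from limma, and none of the 54613 probe sets did. Before adjustment, 3 of the 42 genes were lower and 0 were higher in L3 than in C with a p under 0.05, where 4.26% of all probe sets passed (2.04% lower and 2.22% higher). In L/C the counts were 0 and 0, against 2.42% of all probe sets (1.27% lower and 1.15% higher). In L3/L, 1 gene was lower and 2 were higher in L3, against 5.40% (2.44% and 2.96%). In limma's joint test of any difference, 3.67% of all probe sets had a p under 0.05 before adjustment. The 4 arrays of one formula lay wholly apart from the 4 of the other for 0 genes in L3/C (1.14% of all probe sets higher and 1.07% lower), 1 in L/C, lower (1.17%, and 0.93% higher), and 2 in L3/L, both higher (1.53%, and 1.14% lower). The counts rest on 0 to 3 genes each, and the smallest adjusted p among the 42 genes was 0.891. The L3/C count of 3 was 0 without C replicate 3 or L3 replicate 3, and the L3/L count of 3 was 0 without L replicate 4 and 9 without L3 replicate 4. The share of all probe sets moved as well, to 3.63% without C replicate 3 and 3.68% without L3 replicate 3 in L3/C, and to 4.11% without L replicate 4 and 9.95% without L3 replicate 4 in L3/L. Of the other 54 probe sets, the number past the same unadjusted threshold was 0 for L3/C, 1 for L/C (higher) and 3 for L3/L (1 higher and 2 lower).

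More of the 42 genes lay below 0 than above it in each comparison as fitted on all arrays. In L3/C, 13 were higher and 29 lower, with a median log2 difference of −0.22, while 49.9% of all probe sets were higher and their median was 0.00. In L/C, 13 were higher and 29 lower, with a median of −0.09, against 49.1% and a median of −0.01 for all probe sets. In L3/L, 17 were higher and 25 lower, with a median of −0.12, against 50.5% and 0.01. Over the brighter probe sets alone the median was −0.043 in L3/C, −0.024 in L/C and −0.022 in L3/L. The other 54 probe sets of the same genes leaned less. In L3/C, 24 of them were higher and 30 lower (median −0.041), in L/C 26 and 28 (−0.015), and in L3/L 25 and 29 (−0.082). L3/C and L/C share their C arrays, so their counts are not independent of each other. Without L3 replicate 2 the median was −0.13 in L3/C and −0.011 in L3/L, without C replicate 3 it was −0.14 in L3/C, without L replicate 1 it was −0.0036 in L/C, and without L3 replicate 4 it was −0.19 in L3/L. The split of L/C was 21 higher and 21 lower without L replicate 1. In L3/L it was 21 and 21 with age as a covariate, with a median of 0.0053. On the 6 arrays with higher spike-in signal it was 23 higher and 19 lower in L3/L, with a median of 0.046. On the 6 with lower spike-in signal it was 19 and 23, with a median of −0.045. For L3/C the split was 17 higher and 25 lower on either set of 6. The L3/C medians were −0.092 with higher and −0.072 with lower spike-in signal, where L3 has 1 array. Those of L/C were −0.22 and −0.072. The split also depended on scaling: without further normalization 9 genes were higher and 33 lower in L3/C, and 10 and 32 in L3/L. With each array centred on its median the split was 4 higher and 38 lower in L3/C and 5 and 37 in L3/L, where that scaling moved the median of all probe sets to −0.12 in L3/C and −0.13 in L3/L.

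Per array, the mean deviation of the 42 genes from their own means was −0.10, −0.43, −0.09 and 0.18 in L3 replicates 1 to 4, −0.31, 0.13, 0.21 and 0.07 in L, and −0.06, −0.05, 0.28 and 0.18 in C, on the log2 scale. The formulas overlapped, with L3 replicate 2 the lowest array and C replicate 3 the highest. The 6 arrays with higher spike-in signal, at −0.43 to −0.05, all lay below the 6 with lower spike-in signal, at 0.07 to 0.28. Without the 5 genes that separate these arrays by themselves (NAPA, SNCB, SYT5, CPLX1 and SV2A, described further on), the deviations of the arrays overlapped, and L3 replicate 2 was still the lowest at −0.35. With the division of the arrays by spike-in signal as a covariate, the median of the 42 genes was −0.14 in L3/C, −0.14 in L/C and −0.016 in L3/L. In that fit SYN1, SYNGR3 and AMPH had a p under 0.05 before adjustment in L3/C, against 4.69% of all probe sets. In L/C it was CPLX2 alone, lower in L (3.54%), and in L3/L they were SYNGR1, lower in L3, and CPLX2 and SH3GL1, higher in L3 (5.29%), with 0 probe sets at an adjusted p under 0.05 from limma.

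**Figure D2:**
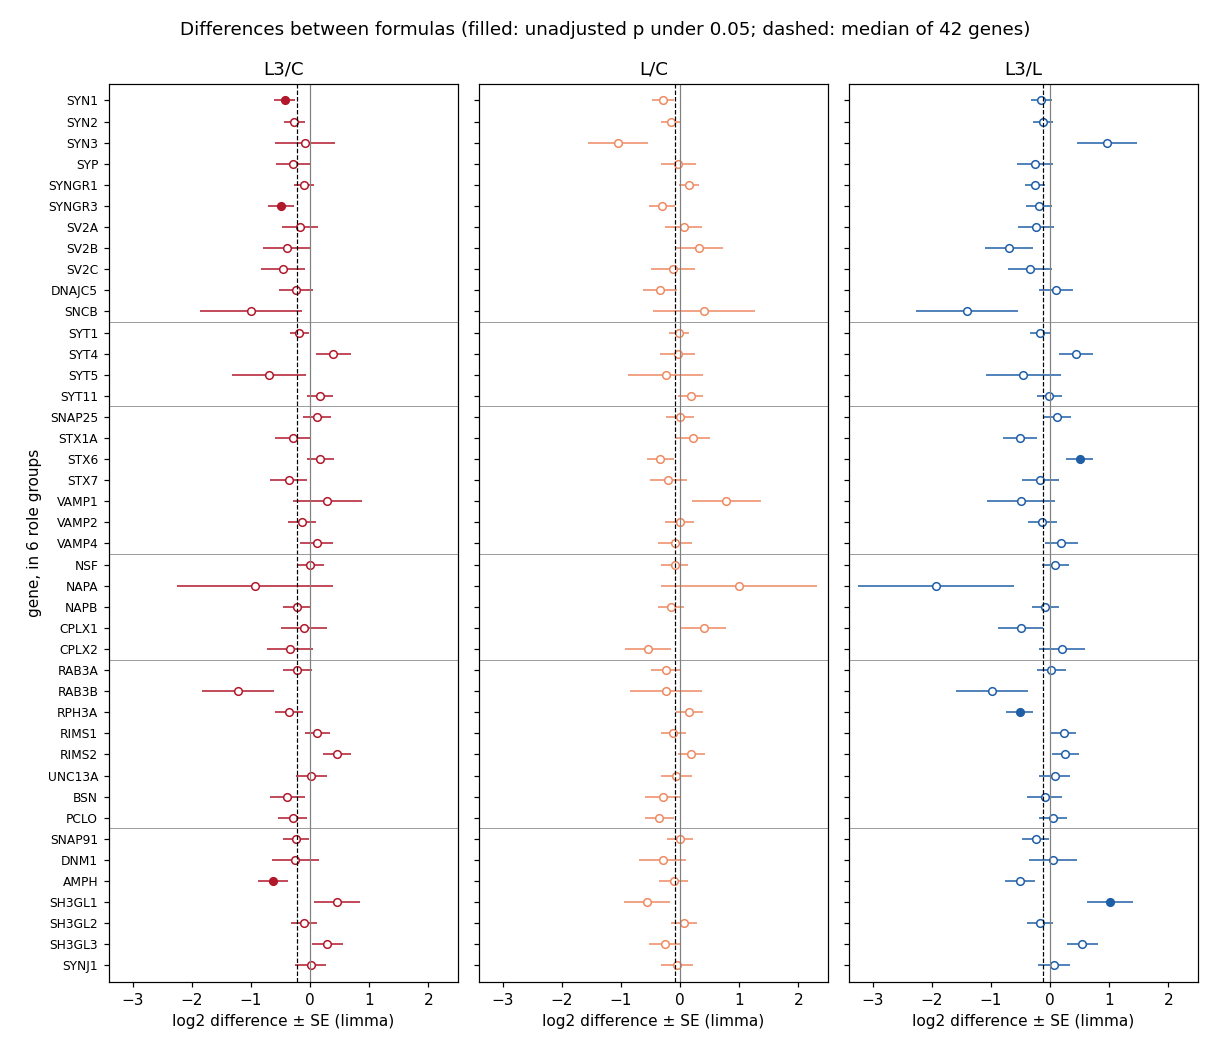
Points are log2 differences of the 42 genes with SE from limma, in the order of the 6 role groups, for L3/C, L/C and L3/L. Dashed lines mark the medians of −0.22, −0.09 and −0.12, and the filled points are the 3 genes in L3/C and the 3 in L3/L with an unadjusted p under 0.05.

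The 11 vesicle proteins all had a log2 difference below 0 in L3/C, from −0.999 for SNCB to −0.08 for SYN3, with a median of −0.28. Of these, 1 lay above 0 without further normalization, and 1 with age, the spike-in division or spike-in signal as a covariate. All 11 were below 0 under median centring. Among the 6 arrays with higher and the 6 with lower spike-in signal, 8 of 11 were below 0 in each, with 1 L3 array among the latter. In L/C, 4 were higher and 7 lower, with a median of −0.12, and in L3/L 2 were higher and 9 lower, with a median of −0.23. Within this group the synapsins coat vesicles and tether them in the reserve pool, and the synaptogyrins, synaptophysin (SYP) and the SV2 glycoproteins span the vesicle membrane.

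SYN1 (probe set 221914_at) had signals of 2533, 2547, 2056 and 3201 in L3 replicates 1 to 4, 2737, 3037, 2932 and 2612 in L, and 3364, 4138, 3451 and 2945 in C. Of the L3 arrays 3 lay below all 4 C arrays and replicate 4 lay among them. The log2 difference was −0.43 (SE 0.18) in L3/C, with an unadjusted p of 0.0316 and an adjusted p of 0.999 from limma, and 0.0571 in the exact two-sided permutation test. It was −0.29 (SE 0.18) in L/C. Among the 6 arrays with higher spike-in signal the L3/C value was −0.65, from 3 L3 and 2 C arrays, and among the other 6 it was 0.01, from 1 L3 and 2 C arrays. The other SYN1 probe set (1553264_a_at) read 306, 937, 952 and 2284 in L3, 879, 1668, 2819 and 2549.7 in L, and 634, 619, 1453 and 3057 in C. Its L3/C difference was −0.36 (SE 0.57), and on it the 6 arrays with lower spike-in signal were all above the other 6.

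SYNGR3, synaptogyrin 3, read 3249, 1759, 2124 and 2945 in L3, 2080.1, 3015, 3287 and 2897 in L, and 3190.3, 3396, 3538 and 3680.4 in C (probe set 205691_at). The C arrays lay close together, and 1 L3 array, replicate 1, reached their range. The L3/C log2 difference was −0.49 (SE 0.22, unadjusted p = 0.0369 and adjusted p = 0.999 from limma, exact permutation p = 0.0571), and the L/C difference was −0.31 (SE 0.22). Within the arrays with higher and with lower spike-in signal the L3/C values were −0.51 and −0.29, with 1 L3 array among the latter.

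SYN3, the third synapsin, was the 1 gene whose L and C arrays did not overlap. Its signals were 90.6, 119.6, 327 and 202 in L3, 109.6, 38.0, 124 and 62.8 in L, and 152, 274, 174 and 131 in C (probe set 206322_at). The highest L array and the lowest C array were 124 and 131, and the L3 arrays overlapped both formulas. The log2 difference in L/C was −1.05 (SE 0.50, unadjusted p = 0.0531 and adjusted p = 1.00 from limma). The exact permutation p was 0.0286, the smallest that 4 against 4 arrays can give. Any formulas that do not overlap get this permutation p, here and below, so it restates the lack of overlap and adds no support. SYN3 was at −0.08 (SE 0.50) in L3/C and 0.96 (SE 0.50) in L3/L.

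The other vesicle proteins had smaller or less certain differences. SYNGR1, with the smallest SE of the group, had an L3/C difference of −0.10 (SE 0.17), or −0.050 without L3 replicate 4, and an L/C difference of 0.16 (SE 0.17). SNCB, which encodes beta-synuclein and had the largest SE, was at −0.999 (SE 0.86) in L3/C and 0.41 (SE 0.86) in L/C. Its L3/C value was −0.14 without L3 replicate 1, −0.49 without C replicate 4, −0.65 without C replicate 3 and −1.69 without L3 replicate 4. The L3/C differences of SYN2, SYP, SV2A, SV2B, SV2C and DNAJC5 were −0.46 to −0.17. For DNAJC5, the cysteine string protein that chaperones SNAP25, the brightest probe set differed by −0.24 (SE 0.29) in L3/C and 0.10 (SE 0.29) in L3/L. A dimmer one (224612_s_at) read 15.4, 201, 231 and 320.1 in L3 against 408, 467, 545 and 483 in L, with 151, 152, 327 and 723 in C. All L3 arrays lay below all L arrays on this probe set, with a log2 difference of −1.67 (SE 0.64, unadjusted p = 0.0192 and adjusted p = 0.891 from limma, exact permutation p = 0.0286). Its value was −1.08 with the spike-in division as a covariate and −0.90 without L3 replicate 1.

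Among the calcium sensors, SYT1, the trigger of fast release, read 20890.4, 11817, 17091 and 16968 in L3, 20244, 18349, 18052 and 16856 in L, and 21153, 19549, 16136 and 17689.8 in C. L3 replicate 2 was the lowest of the 12 arrays, and the remaining arrays of the 3 formulas overlapped. Its log2 difference was −0.18 (SE 0.17) in L3/C and −0.02 (SE 0.17) in L/C, and the L3/C value was −0.024 without L3 replicate 2, −0.12 without C replicate 1 and −0.30 without L3 replicate 1. SYT4 and SYT11, isoforms with weakened calcium binding, were at 0.40 (SE 0.29) and 0.17 (SE 0.22) in L3/C. SYT5 was at −0.69 (SE 0.63), where the arrays ran from 172 to 1639, and at −0.15 without L3 replicate 1, −0.41 without C replicate 4 and −1.18 without L3 replicate 4. The 4 sensors had a median of −0.01 in L3/C, and 2 of 4 were higher and 2 lower. That median was −0.24 without further normalization and −0.41 with median centring. On the arrays with lower spike-in signal, where L3 has 1 array, it was 0.10.

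For the SNAREs, the fusion proteins themselves, the L3/C median was 0.11 on the log2 scale, with 4 of 7 higher. The median was 0.01 without further normalization and turned to −0.16 under median centring. It was −0.036 and −0.024 with the spike-in division and with spike-in signal as a covariate, −0.019 and −0.013 among the arrays with higher and with lower spike-in signal, and −0.020 with females only. SNAP25 was at 0.13 (SE 0.24) in L3/C and 0.00 (SE 0.24) in L/C, and it turned to −0.16 in L3/C under the median centring. Without 1 array it ran from −0.053 (L3 replicate 1) to 0.31 (L3 replicate 4). STX1A, its plasma membrane partner, was at −0.30 (SE 0.29) in L3/C and 0.22 (SE 0.29) in L/C. VAMP2, the vesicle SNARE of fast release, was at −0.13 (SE 0.24) in L3/C and 0.00 (SE 0.24) in L/C on its brightest probe set. VAMP1 had the largest SE of the group, with an L3/C value of 0.29 (SE 0.58) that ran from −0.36 without C replicate 2 to 0.77 without L3 replicate 2. VAMP4 and STX7, which act in endosomal traffic, were at 0.11 (SE 0.29) and −0.36 (SE 0.31) in L3/C.

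STX6, a syntaxin of the trans-Golgi network and endosomes, was the SNARE that met the naming rule, and its probe sets disagreed. On the brightest one (212799_at) the signals were 1600.0, 1503, 1347 and 1082 in L3, 1048, 957, 961 and 889 in L, and 1394, 1610.1, 1012 and 958 in C. All L3 arrays lay above all L arrays, and the C arrays overlapped both. The L3/L log2 difference was 0.50 (SE 0.23, unadjusted p = 0.0436 and adjusted p = 0.891 from limma, exact permutation p = 0.0286). On 212800_at the signals were 326, 348, 186 and 308 in L3 against 451, 406, 444 and 469 in L, with 127, 312, 291 and 474 in C. There all L3 arrays lay below all L arrays, with a log2 difference of −0.61 (SE 0.37, unadjusted p = 0.124 and adjusted p = 0.893 from limma, exact permutation p = 0.0286). With the spike-in division as a covariate the L3/L values were 0.29 and −0.42. The 3 dimmer STX6 probe sets had L3/L differences of −0.21 to 0.43. A direction for STX6 therefore depended on the probe set.

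**Figure D3:**
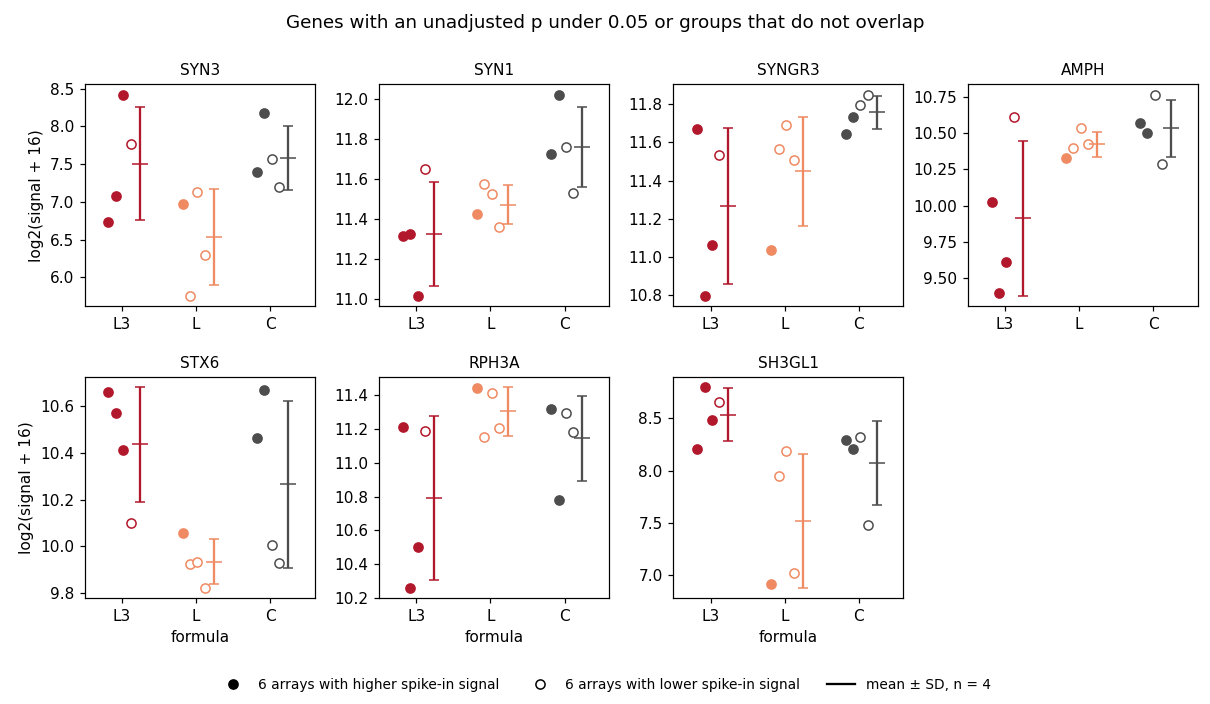
Points are log2(signal + 16) of the 4 arrays per formula (L3, L, C) for the 7 genes with an unadjusted p under 0.05 or formulas that do not overlap, filled for arrays with higher spike-in signal, with mean and SD beside them. L3 lies above L for STX6 and SH3GL1 with no overlap, L lies below C for SYN3, and the L3 arrays of AMPH and RPH3A are spread widely.

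NSF, the ATPase that takes SNARE complexes apart, was at 0.00 (SE 0.23) in L3/C and −0.09 (SE 0.23) in L/C. NAPB, an adaptor of NSF, read 7941, 5168, 4138 and 4415 in L3, 7084, 5996, 4063 and 5369 in L, and 5732, 7478, 6604 and 4986 in C, and its L3/C difference was −0.23 (SE 0.23), running from −0.43 without L3 replicate 1 to −0.11 without L3 replicate 3. NAPA, the other adaptor of the group, was at −0.93 (SE 1.32) in L3/C and 1.00 (SE 1.32) in L/C, the largest SE of the 42 genes. On its other probe set the L3/C difference was −0.43 (SE 0.65), and on the first it ran from −2.14 without L3 replicate 4 to 0.028 without C replicate 4. The complexins bind assembled SNAREs and clamp fusion until calcium arrives. CPLX1 was at −0.10 (SE 0.39) and CPLX2 at −0.33 (SE 0.39) in L3/C. CPLX2 read 312 on L replicate 1 and 1027 to 1213 on the other L arrays, and its L/C difference was −0.54 (SE 0.39).

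Of the RAB3 and active zone genes, RPH3A encodes rabphilin, a RAB3 effector on vesicles. It read 2359, 1207, 1433 and 2316 in L3, 2769, 2264, 2710.1 and 2349 in L, and 2543, 1739, 2501 and 2311 in C (probe set 205230_at). L3 replicates 2 and 3 were the lowest of the 12 arrays, while L3 replicates 1 and 4 lay within the range of L. The L3/L log2 difference was −0.52 (SE 0.24, unadjusted p = 0.0436 and adjusted p = 0.891 from limma, exact permutation p = 0.143), and the L3/C difference was −0.36 (SE 0.24). Without L3 replicate 2 the L3/L value was −0.34. Among the arrays with higher spike-in signal the L3/L value was −0.79, from 3 L3 arrays and 1 L array, and among the others −0.07, from 1 L3 array and 3 L arrays.

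RAB3B, a vesicle GTPase, read 411, 33.5, 65.0 and 425 in L3, 287, 256, 339 and 376 in L, and 480.2, 499, 334 and 231 in C on its brightest probe set (227123_at). L3 replicates 2 and 3 were far below the other 10 arrays, and the L3/C difference was −1.22 (SE 0.60, unadjusted p = 0.0598 and adjusted p = 0.999 from limma, exact permutation p = 0.286). The value was −0.64 without L3 replicate 2, −2.08 among the arrays with higher spike-in signal and 0.58 among those with lower, where L3 has 1 array. Another RAB3B probe set (205925_s_at) read 12.9, 15.6, 26.9 and 132.8 in L3, 215, 107, 419.8 and 260.4 in L, and 10.1, 36.5, 151 and 338 in C. Its L3/L difference was −2.30 (SE 0.77, unadjusted p = 0.00861 and adjusted p = 0.891 from limma, exact permutation p = 0.0571), and it was −1.42 with the spike-in division as a covariate. RAB3A, the isoform most tied to fast synapses, was at −0.21 (SE 0.25) in L3/C and −0.24 (SE 0.25) in L/C.

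RIMS1 and RIMS2 encode scaffolds that link RAB3 to the active zone. RIMS1 was at 0.12 (SE 0.21) in L3/C, running from 0.053 without C replicate 4 to 0.20 without C replicate 1, and RIMS2 on its brightest probe set read 1844, 1172, 1551 and 1086 in L3, 914, 1125, 1339.8 and 1268 in L, and 1170.1, 1032, 940.1 and 892 in C. That L3/C difference was 0.46 (SE 0.23, unadjusted p = 0.0669 and adjusted p = 0.999 from limma, exact permutation p = 0.0571). A dimmer RIMS2 probe set (215478_at) was at 1.36 (SE 0.60, unadjusted p = 0.038 and adjusted p = 0.891 from limma, exact permutation p = 0.0857) in L3/L, with 443, 618, 663 and 142 in L3 and 448, 133.2, 97.7 and 76.1 in L. On it the arrays with lower spike-in signal lay below all the others, and the L3/L value was 0.48 with the spike-in division as a covariate. UNC13A, the priming factor, and the cytomatrix proteins BSN and PCLO were at 0.02 (SE 0.26), −0.39 (SE 0.29) and −0.30 (SE 0.24) in L3/C. The 8 genes had a median of −0.26 in L3/C and 0.04 in L3/L, and the L3/L value turned to −0.18 without further normalization, −0.39 with median centring and −0.051 with age as a covariate.

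Among the endocytic genes, AMPH encodes amphiphysin, which binds dynamin and clathrin adaptors on budding membrane. Its signals were 1028, 658, 765 and 1551 in L3, 1267, 1336, 1472 and 1359 in L, and 1505, 1436, 1727 and 1236 in C (probe set 205257_s_at). L3 replicates 1, 2 and 3 lay below all L and C arrays, and L3 replicate 4 was above all but 1 of them. The L3/C log2 difference was −0.62 (SE 0.25, unadjusted p = 0.0261 and adjusted p = 0.999 from limma, exact permutation p = 0.114), and the L3/L difference was −0.51 (SE 0.25). Among the arrays with higher spike-in signal the L3/C value was −0.86, and among those with lower, where L3 has 1 array, it was 0.09.

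SH3GL1, endophilin A2, read 279, 430.4, 343 and 387 in L3, 104, 230.0, 276 and 114 in L, and 298, 279, 304 and 162 in C (probe set 201851_at). All 4 L3 arrays lay above all 4 L arrays, by 279 against 276 at the nearest, and C overlapped both. The L3/L log2 difference was 1.02 (SE 0.39, unadjusted p = 0.0182 and adjusted p = 0.891 from limma, exact permutation p = 0.0286). It was 1.59 among the arrays with higher spike-in signal, from 3 L3 arrays and 1 L array. Among those with lower it was 0.94, from 1 L3 array and 3 L arrays, and with the division as a covariate 1.10. Its paralogs SH3GL2 and SH3GL3 were at −0.17 (SE 0.22) and 0.55 (SE 0.26) in L3/L, and at −0.10 (SE 0.22) and 0.29 (SE 0.26) in L3/C.

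SNAP91, the clathrin adaptor AP180, was at −0.24 (SE 0.22) in L3/C, DNM1, the fission GTPase dynamin 1, was at −0.25 (SE 0.40), and SYNJ1, the lipid phosphatase synaptojanin 1, was at 0.01 (SE 0.27). Without 1 array SNAP91 ran from −0.37 (C replicate 1) to −0.13 (L3 replicate 2) and DNM1 from −0.41 (C replicate 1) to −0.055 (L3 replicate 2). A dim SYNJ1 probe set (232993_at) read 149, 13.3, 96.7 and 21.1 in L3, 192, 15.8, 42.1 and 54.5 in L, and 16.2, 18.4, 7.41 and 14.4 in C. The C arrays were all low and the other arrays varied, with an L/C difference of 1.28 (SE 0.60, unadjusted p = 0.0485 and adjusted p = 1.00 from limma, exact permutation p = 0.0857) that the brightest probe set, at −0.05 (SE 0.27), did not share. Without L replicate 1 that difference was 0.77. The 7 endocytic genes had a median of −0.10 in L3/C and 0.05 in L3/L. The L3/L value turned to −0.28 without further normalization, −0.49 with median centring and −0.054 with the ACTB ratio as a covariate. It was 0.61 among the arrays with higher spike-in signal, where L has 1 array, and −0.13 among those with lower, where L3 has 1 array.

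For 5 of the 42 genes the 2 lowest of the 12 arrays were L3 replicates 2 and 3, and for all probe sets the share was 3.66%. These genes were SYN2, RAB3B, RPH3A, AMPH and SH3GL2, a description made after their values were seen. Of the 27 genes with several probe sets, all probe sets had 1 direction for 9 genes in L3/C, 9 in L/C and 6 in L3/L.

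Some of these genes separated the arrays by spike-in signal within every formula. The 6 arrays with lower spike-in signal all lay above the other 6 for NAPA, SNCB, SYT5, CPLX1 and SV2A, which is 5 of 42 genes against 2.67% of all probe sets, and the opposite held for 0 of 42 against 1.99%. A log2 difference of 1 or more was found for 5 genes (7.74% of all probe sets), with SV2B at 1.01 in place of SV2A, and one of −1 or less for 0 (5.82%). NAPA read 58.2, 37.4, 102 and 2222 in L3, 36.9, 863, 2080.1 and 2250.3 in L, and 53.4, 109.5, 612 and 2507 in C. Its other probe set (208751_at) read 121, 318, 585 and 1312 in L3, 187, 814, 1008 and 852 in L, and 438, 255, 738 and 1301 in C, and the arrays divided there too. SNCB read 94.7, 562, 1061 and 2792 in L3, 482, 2437, 2734 and 2811 in L, and 470.4, 591, 2696 and 3839 in C. In each formula NAPA and SNCB divided the arrays in the same way, with 1 of 4 L3 arrays, 3 of 4 L arrays and 2 of 4 C arrays on the high side. The log2 difference of arrays with lower over arrays with higher spike-in signal was 4.34 for NAPA (1.74 on its other probe set), 2.63 for SNCB, 1.60 for SYT5, 1.10 for CPLX1 and 0.76 for SV2A, with a median over the 42 genes of 0.27 and of −0.05 over all probe sets. At the other end were SYT4 at −0.74 and SNAP25 at −0.58. The marker sums divided along the same line for microglia, at 3141 to 4783 where spike-in signal was lower and 1336 to 2602 where it was higher, and for astrocytes, at 19243 to 26842.7 and 27539 to 36129.9. All 7 microglia markers were higher where spike-in signal was lower (log2 0.53 to 1.42), and 0 of 7 divided the arrays singly. The 7 oligodendrocyte markers were all higher there too (log2 0.05 to 2.02), and MOG divided the arrays, but their sums overlapped. Of the 12 neuron markers 6 were higher there, and ENO2 divided the arrays at 0.57. The astrocyte sum is led by the transporters SLC1A2 and SLC1A3, with mean signals of 18173 and 4616, and 0 of 8 astrocyte markers divided the arrays in the direction of the sum. S100B and FGFR3 divided them the other way, at 1.54 and 1.59, and the median of the 8 was −0.20. The part of these lists in the separation was not tested. With the division as a covariate the L3/C difference of NAPA was 0.18 and that of SNCB −0.35.

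VAMP2 gave a sharper case within 1 gene. Its brightest probe set (201557_at) read 1529.6, 2642, 2927 and 2879 in L3, 2102, 2273, 3685 and 2778 in L, and 2430.3, 2417, 2507 and 3364 in C. A further probe set (201556_s_at) read 367, 52.6, 427 and 3374 in L3, 252, 417, 3949.5 and 2891 in L, and 145, 546, 251 and 3872 in C. The 4 arrays at 2891 or more were those with an ACTB 3′/5′ ratio of 0.904 to 1.13, and the other 8 arrays lay at 546 or less. The remaining probe set (214792_x_at) had 2748 to 4258 on the same 4 arrays and 35.7 to 409 on the other 8. Where the probes of these sets lie along the transcript was not analysed here.

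**Figure D4:**
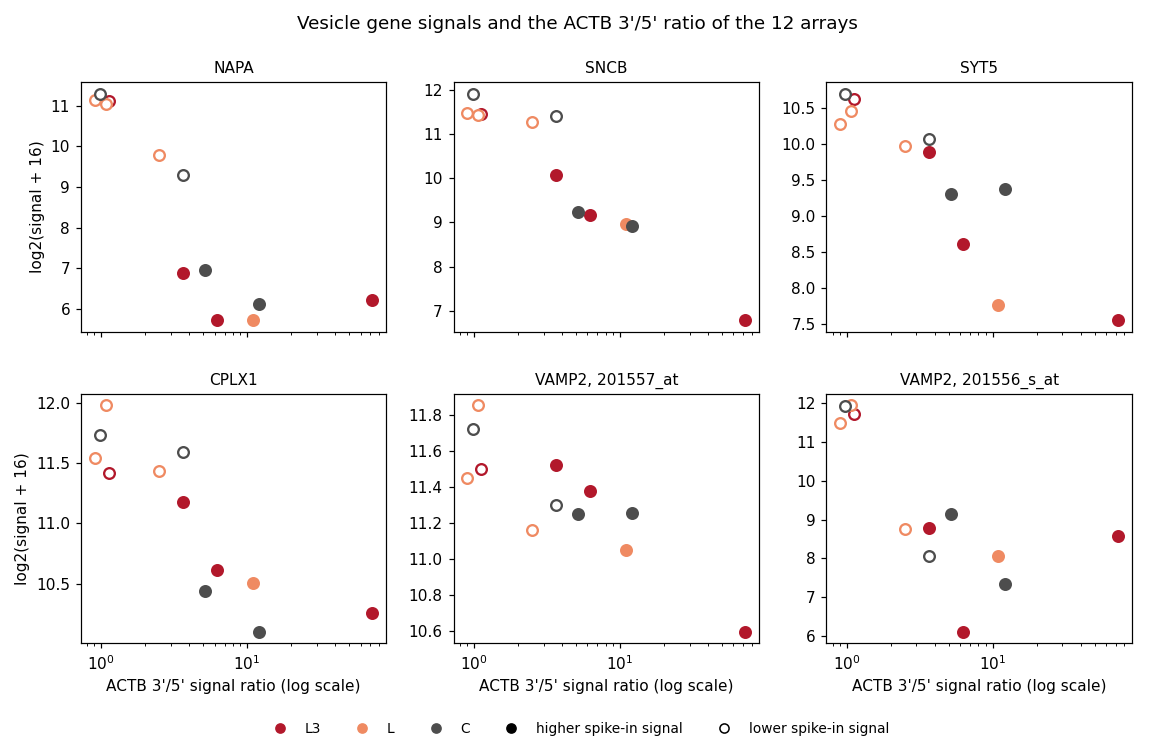
Each point is an array, with its ACTB 3′/5′ ratio on a log axis and log2(signal + 16) of the named probe set, coloured by formula and filled where the spike-in signal was higher. NAPA, SNCB, SYT5 and CPLX1 were high on the 6 arrays with open circles, and VAMP2 probe set 201556_s_at on the 4 arrays with a ratio of 0.904 to 1.13, whatever the formula.

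A wider list of 85 other presynaptic genes, 79 of them measured, was read in the same way, and L3 replicates 2 and 3 were its 2 lowest arrays for 6 of 79 genes (STX5, SYT2, SYT13, SYNPR, PPFIA4 and CADPS), against the same 3.66%. At an unadjusted p under 0.05, 6 were lower and 0 higher in L3/C, against 2.04% and 2.22% of all probe sets. In L/C there were 0 in either direction (1.27% lower and 1.15% higher), and in L3/L 3 were lower and 0 higher (2.44% and 2.96%), with 0 after adjustment in limma. The median log2 difference was −0.14 in L3/C, −0.12 in L/C and −0.10 in L3/L. STX2, another plasma membrane syntaxin, read 78.9, 292, 195 and 233 in L3, 545, 379, 335 and 299.9 in L, and 489.9, 486, 451 and 299.6 in C. Its L3 arrays lay below all others, with log2 differences of −1.15 (SE 0.39, unadjusted p = 0.00894 and adjusted p = 0.999 from limma) in L3/C and −0.999 (SE 0.39) in L3/L, and an exact permutation p of 0.0286 for each. Without L3 replicate 1 the L3/L value was −0.65.

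SYNPR, a synaptophysin relative, read 1441, 798, 908 and 1746 in L3, 1874, 1411, 1565 and 1343 in L, and 2166.0, 1984, 1715 and 1848 in C, and its L3/C value was −0.72 (SE 0.25). SYT13, a synaptotagmin without calcium binding, was at −0.44 (SE 0.19) in L3/C, with all L3 arrays (2173 to 3109) below all C arrays (3183 to 4008). CADPS, a priming factor of dense core vesicles, was at −0.67 (SE 0.28, and −0.40 without L3 replicate 3) and DOC2A, a calcium sensor of spontaneous release, at −1.33 (SE 0.56) in L3/C, and DOC2A was at −1.60 (SE 0.56) in L3/L. PPFIA4, a liprin of the active zone, was at −1.30 (SE 0.59) in L3/L and −1.27 (SE 0.59) in L3/C. Among the arrays with lower spike-in signal, where L3 has 1 array, the L3/C values of SYNPR, SYT13 and CADPS were −0.03, −0.07 and −0.04, those of STX2 and DOC2A −0.62 and −1.09.

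**Figure D5:**
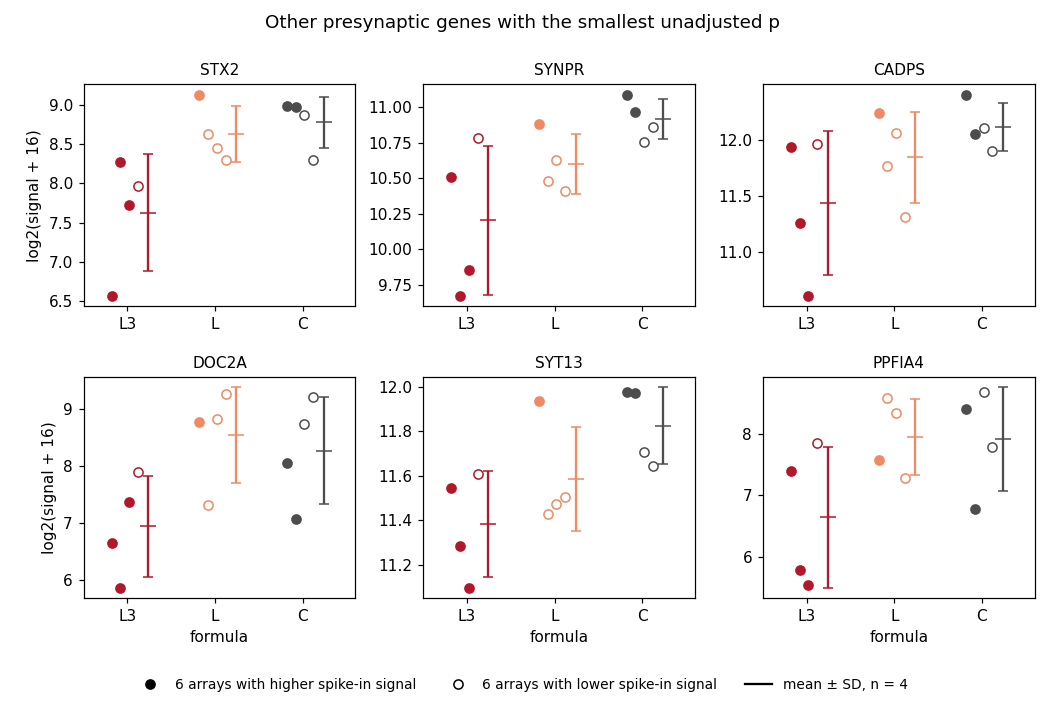
Points are log2(signal + 16) of the 4 arrays per formula (L3, L, C) for the 6 other presynaptic genes with an unadjusted p under 0.05 in L3/C, filled for arrays with higher spike-in signal, with mean and SD beside them. The L3 arrays of STX2 lie below all L and C arrays, and L3 replicates 2 and 3 are the lowest points for SYNPR, SYT13, CADPS and PPFIA4.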

How the data were processed

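The authors deposited 1 table with the MAS5 signal of each array, an intensity on a linear scale for 54675 probe sets (MAS5 per the submitters' processing notes). The methods describe RMA values, which these are not, and probe-level files were not used here. After leaving out 62 control probe sets, a pseudocount of 16 went onto every signal, the log2 values were quantile normalized, and limma 3.58.1 (R 4.3.3) fitted the 3 formula means with 9 residual degrees of freedom and a variance trend. Printed signals are these values turned back to the linear scale less 16, and log2 differences are of signal plus 16, which understates changes of low signals. A positive difference means higher in the formula named before the slash. Benjamini-Hochberg adjustment ran over 54613 probe sets, with a threshold of 0.05. The exact two-sided permutation test of 4 against 4 log2 values cannot go below 0.0286. Formulas that do not overlap always reach that value, so for them this p is not a further test. Precision is limited by having 12 arrays, with a median SE of 0.51 over all probe sets. Replicates are separate animals.

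Values of every array are given for members with an unadjusted p under 0.05 or with formulas that do not overlap. Other probe sets of the members follow the same rule or measure the same gene. Further members are given as examples, those with the smallest and largest SE of their role first, and up to 5 genes of the wider list per comparison. VAMP2, CPLX2, RIMS2, RAB3B, NAPB, NAPA, SNCB and SYT1 are given by array outside this rule, and were chosen for it after their values were seen. The members and lists were chosen with earlier results of these data known. Alternatives were no further normalization, centring on the median, a pseudocount of 1, only brighter probe sets, no variance trend, only the 8 arrays compared, sex or age as covariate, females only, a replicate block, the methods' test without moderation, the mean over all probe sets of a gene, and leaving out each array. Chosen after seeing the data were spike-in and ACTB covariates, the 6 arrays of either spike-in level, and the brightest probe set by mean log2. Scripts were tested on simulated data. Figures were drawn with matplotlib 3.10.9. Probe sequences were not analysed here.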

Additional observations from a re-analysis of the deposited data

Results flagged for a closer look

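In a group of 4 arrays, an array was marked where its gap to the nearest of the others, as a share of the whole range of the group on the log2 scale, passed Dixon's critical value. Of 162 groups of a gene and a formula, 11 had such an array, and chance marks about 1 in 20 groups. Of the 11, 6 were L replicate 1, which had higher spike-in signal than the other L arrays. It was low for SV2A (1026 against 2069.8 to 2316, a share of 0.861), SNCB (482 against 2437 to 2811, 0.918), VAMP4 (440.1 against 718 to 791, 0.834), CPLX2 (312 against 1027 to 1213, 0.876) and SYNJ1 (1356 against 1923 to 2043, 0.852). It was high for SYT13 (3895 against 2744 to 2894, 0.849).

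Among C arrays, replicate 1 was low for STX1A (1522 against 2345 to 2511, 0.863). C replicate 4 was high for VAMP2 on its brightest probe set (3364 against 2417 to 2507, 0.8898) and low for SH3GL1 (162 against 279 to 304, 0.860) and STX2 (299.6 against 451 to 489.9, 0.831). Among L3 arrays, replicate 1 was low for VAMP2 (1529.6 against 2642 to 2927, 0.842).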

How the results depend on the processing

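No alternative fitted on all 12 arrays brought a probe set under an adjusted p of 0.05. Of the 894 alternative values of the 32 named log2 differences, 872 kept their sign. Part of these could not change it, because the fit leaves the log2 difference as it was. Such fits were brighter probe sets only, no variance trend, the 8 arrays compared, the replicate block and the methods' test. Leaving out an array of the formula not compared was another. The reported counts of genes with an unadjusted p under 0.05 are 3 of 42 in L3/C, 0 in L/C and 3 in L3/L. For L3/C the count was 1 without further normalization, with females only, with the methods' test, with spike-in signal as a covariate and on the 6 arrays with lower spike-in signal, 0 with median centring and without a variance trend, and 6 with the ACTB ratio as a covariate, where the same share of all probe sets was 2.98% to 4.66% (4.26% as reported). In L/C it was 1 with a pseudocount of 1, without a variance trend, on the 8 arrays compared, with sex, the spike-in division or spike-in signal as a covariate and on the 6 arrays with lower spike-in signal, 2 with the methods' test, the ACTB ratio and the 6 arrays with higher spike-in signal, and 3 with age, with shares of 2.34% to 6.98% (2.42% as reported). In L3/L it was 1 without further normalization, with median centring and on the 6 arrays with lower spike-in signal, with shares of 4.11% to 5.38% (5.40% as reported). On the 6 arrays with higher spike-in signal, where L has 1 array assumed to vary like the others, 8 probe sets were called in L3/L. Median centring moved the median of the 42 genes to −0.57 in L3/C and −0.51 in L3/L. The cause of these shifts was not tested.

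Some L3/C values changed sign. RIMS1 was −0.10 without further normalization and −0.27 with median centring, where SNAP25 was −0.16. With the spike-in division as a covariate SNAP25 was −0.036 and NAPA 0.18, and with spike-in signal −0.076 and 0.62. On the 6 arrays with higher spike-in signal SNAP25 was −0.019, RIMS1 −0.049 and DNM1 0.036. On the 6 with lower spike-in signal, where L3 has 1 array, SYN1 was 0.0058, AMPH 0.086, SYT1 0.0062, SYT5 0.24, SNAP25 −0.090, VAMP1 −0.29, NAPA 0.83 and RAB3B 0.58. The spike-in and ACTB alternatives were chosen after seeing the data.

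Leaving out each array in turn gave 0 to 5 genes in L3/C, with 0 without C replicate 3 or L3 replicate 3, 1 without C replicate 2 or L3 replicate 2, and 5 without L3 replicate 1 or 4. It gave 0 to 1 in L/C, with 1 without L replicate 1 or 3 or L3 replicate 1 or 3. It gave 0 to 9 in L3/L, with 0 without L replicate 4, 1 without C replicate 1, L replicate 3 or L3 replicate 3, 5 without L replicate 1 and 9 without L3 replicate 4. The shares of all probe sets were 3.63% to 7.90% in L3/C, 1.88% to 3.46% in L/C and 4.11% to 9.95% in L3/L. Over the same fits SNAP25 ran from −0.053 to 0.31, VAMP1 from −0.36 to 0.77 and NAPA from −2.14 to 0.028 in L3/C.

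With the replicate number as a block (replicate block), the counts were 4 in L3/C, 0 in L/C and 7 in L3/L, against 5.19%, 3.11% and 7.01% of all probe sets. Deviations of same-numbered arrays correlated at −0.09 to 0.33, not all above 0.1, so the numbers were not taken as pairs. The replicate number did follow the technical controls. In every formula the ACTB ratio fell at each step from replicate 1 to replicate 4. It went from 72.3 to 1.13 in L3, from 10.96 to 0.904 in L and from 12.1 to 0.982 in C. Every replicate 1 had higher and every replicate 4 lower spike-in signal. The block therefore also carries part of this order, and its share in the block counts was not tested. Few arrays limit what could be detected. The part of human probes on baboon RNA and of uneven ACTB ratios in what was detected was not tested.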
